A study of Homo sapiens with 10 samples.

Results

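The replication-dependent histone genes encode the bulk of the histone protein that packages newly copied DNA. They were taken here as every protein-coding gene of the GENCODE annotation on GRCh37 with a symbol of the H1-1 to H1-6, H2AC, H2BC, H3C or H4C series. The rule used no measured value and gave 64 genes of 20098 protein-coding genes on chromosomes 1 to 22 and X. Counts of histone genes and histone promoters below are of these 64 unless others are named. They comprised 6 genes of H1, 16 of H2A, 16 of H2B, 13 of H3 and 13 of H4. Of these, 51 lay on chromosome 6 between H2AC1 and H2BC17, 10 on chromosome 1 between H2BC18 and H2AC21, 2 further along chromosome 1 (H2AC25 and H2BC26) and 1, H4C16, on chromosome 12.

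The study mapped chromatin in MDAMB231, a triple-negative breast cancer cell line grown in DMEM with 5% serum and given no treatment. Chromatin immunoprecipitation and sequencing (ChIP-seq) was carried out with antibodies to H3K4me3, H3K27Ac and H3K4me1, 2 samples for each mark with 1 shared input DNA. FAIRE-seq, which recovers DNA that is not held in nucleosomes after crosslinking, was carried out on 2 samples with an input DNA of its own. The lists of peaks used here, 1 for each assay, hold the 2 samples combined by the authors. Values therefore carry no replicate error, no test over samples was run, and genes next to each other that lie under the same peak are not independent observations.

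Histone genes of this kind are copied into RNA mainly while DNA is being replicated, in nuclear bodies built around the coactivator NPAT. Their messages end in a stem-loop bound by SLBP in place of a poly(A) tail, and the genes lack introns as a rule. H3K4me3 marks the promoters of active genes, H3K27Ac marks active promoters and enhancers, H3K4me1 is the usual mark of enhancers, and FAIRE recovers the nucleosome-depleted stretch where regulatory proteins bind.

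Many H2A and H2B genes sit head to head and share the DNA between their start sites, so 6 of these stretches are shown here as promoters of both genes. The stretches are printed as the plus strand of GRCh37, from the base after the start site of the minus-strand gene, named before the slash, to the base before the most 5′ annotated start site of the plus-strand gene. Capitals mark matches on either strand to any of 5 motifs. The TATA box was searched as TATAAA and, in its other form, as TATATA. The octamer bound by POU2F1 was searched as ATTTGCAT, and the E2F-like site as TTTCGCGC, TTTGGCGC or TTTCCCGC. The remaining motifs were CCAAT, which is bound by NF-Y, and GGTCC, which is a part of the element bound by HINFP at H4 genes. Matches that touch or overlap run together. None of the 6 overlapped an annotated exon, and the H2AC1/H2BC1 stretch lies in an intron of a further protein-coding gene. The first 4 lay under peaks of H3K4me3, H3K27Ac and FAIRE, and the last 2 had no peak of any list.
H2AC15/H2BC15, chr6:27806154-27806322: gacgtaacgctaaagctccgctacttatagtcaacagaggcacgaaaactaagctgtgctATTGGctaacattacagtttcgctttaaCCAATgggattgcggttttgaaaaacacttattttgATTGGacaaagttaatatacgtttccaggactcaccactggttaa
H2BC21/H2AC20, chr1:149858233-149858467: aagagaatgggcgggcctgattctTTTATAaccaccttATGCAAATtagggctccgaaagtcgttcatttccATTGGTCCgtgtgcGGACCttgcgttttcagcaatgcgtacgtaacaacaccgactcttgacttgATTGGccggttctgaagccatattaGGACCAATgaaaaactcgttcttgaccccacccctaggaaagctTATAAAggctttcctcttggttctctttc
H2AC17/H2BC17, chr6:27860964-27861202: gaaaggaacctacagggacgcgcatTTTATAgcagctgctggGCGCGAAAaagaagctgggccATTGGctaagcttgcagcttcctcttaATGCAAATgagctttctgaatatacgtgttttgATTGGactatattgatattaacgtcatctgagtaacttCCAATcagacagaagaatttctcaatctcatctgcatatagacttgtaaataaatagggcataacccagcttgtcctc
H2BC11/H2AC11, chr6:27100575-27100821: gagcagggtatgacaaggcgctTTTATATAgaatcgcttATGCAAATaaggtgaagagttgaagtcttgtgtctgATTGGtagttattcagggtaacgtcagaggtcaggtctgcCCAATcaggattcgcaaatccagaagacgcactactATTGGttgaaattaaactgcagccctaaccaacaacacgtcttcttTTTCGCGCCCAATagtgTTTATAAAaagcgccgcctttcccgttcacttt
H2AC1/H2BC1, chr6:25726791-25727004: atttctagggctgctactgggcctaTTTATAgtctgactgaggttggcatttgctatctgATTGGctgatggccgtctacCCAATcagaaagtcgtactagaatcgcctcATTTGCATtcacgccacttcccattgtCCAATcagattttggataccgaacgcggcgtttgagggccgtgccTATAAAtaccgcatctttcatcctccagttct
H2AC25/H2BC26, chr1:228645575-228645803: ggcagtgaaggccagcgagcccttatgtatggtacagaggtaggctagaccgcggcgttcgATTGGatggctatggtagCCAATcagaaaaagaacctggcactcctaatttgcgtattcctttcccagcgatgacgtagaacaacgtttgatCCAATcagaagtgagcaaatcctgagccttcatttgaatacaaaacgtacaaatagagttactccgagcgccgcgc

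For H1, H3 and H4, the 120 bases before the start site are shown for a marked and an unmarked gene of each family. Each is written 5′ to 3′ on the strand of its gene, with the same capitals. No annotated exon overlapped them. H1-4, H3C2 and H4C16 had peaks of H3K4me3, H3K27Ac and FAIRE at the promoter, whereas H1-5, H3C11 and H4C13 had none of any list.
H1-4, chr6:26156437-26156556, plus strand: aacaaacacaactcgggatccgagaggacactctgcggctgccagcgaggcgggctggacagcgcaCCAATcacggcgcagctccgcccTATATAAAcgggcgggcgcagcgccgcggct
H1-5, chr6:27835367-27835486, minus strand: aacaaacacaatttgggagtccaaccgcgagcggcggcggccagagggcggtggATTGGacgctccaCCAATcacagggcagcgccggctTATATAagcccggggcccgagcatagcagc
H3C2, chr6:26032328-26032447, minus strand: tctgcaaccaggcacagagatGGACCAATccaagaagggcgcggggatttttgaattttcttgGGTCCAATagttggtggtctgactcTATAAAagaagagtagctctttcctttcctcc
H3C11, chr6:27840125-27840244, minus strand: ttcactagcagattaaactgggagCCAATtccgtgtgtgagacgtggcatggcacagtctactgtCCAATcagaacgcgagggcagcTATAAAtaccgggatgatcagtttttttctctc
H4C16, chr12:14924066-14924185, minus strand: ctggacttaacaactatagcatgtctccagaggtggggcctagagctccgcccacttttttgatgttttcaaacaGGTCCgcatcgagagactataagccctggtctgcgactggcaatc
H4C13, chr6:27841313-27841432, minus strand: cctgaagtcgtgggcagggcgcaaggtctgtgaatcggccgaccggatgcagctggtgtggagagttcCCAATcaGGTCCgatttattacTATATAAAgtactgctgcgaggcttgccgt

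Several sequence features differed between the families. Within 250 bases before the start of the main transcript, a CCAAT match was found at 55 of 64 histone genes (85.9%) and at 34.1% of all protein-coding genes. It was present at all 6 H1, 16 H2A, 16 H2B and 13 H3 genes but at 4 of 13 H4 genes. The TATA box was matched at 48 of 64 (75%), against 11.4% of all genes. The octamer was matched at 24 of 64 (37.5%), against 1.53%, and these 24 were 12 of 16 H2A and 12 of 16 H2B genes. GGTCC was matched at 12 of 13 H4 genes (92.3%), while over all histone genes its share, 34.4%, was under the 45.6% of all protein-coding genes. An E2F-like match was found at 14 histone genes (21.9%), against 3.22%. The 250-base windows of genes that lie head to head can overlap, so 1 octamer or E2F-like site can count for both genes. These shares are therefore of genes and not of separate sites. The same 250 bases had a median GC content of 42.8% at histone genes and 63.2% at all genes, and the ratio of observed to expected CpG was 0.758 against 0.747. By family, the CpG ratio was 0.604 at H3, 0.717 at H1, 0.82 at H2B, 0.825 at H2A and 0.906 at H4. Histone promoters were thus AT-rich beside other promoters, with a CpG ratio that lay under that of all genes at H1 and H3 and above it at the other families.

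**Figure D1:**
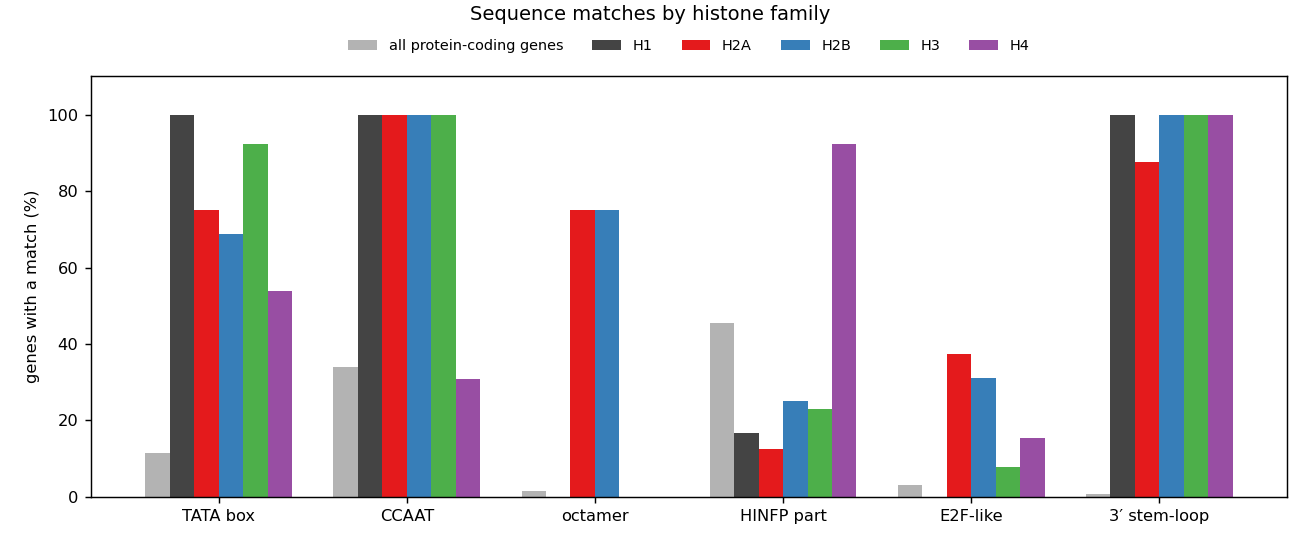
Share of genes (%) with a match to each motif within 250 bases before the start, or to the stem-loop within 200 bases after the stop codon, for all protein-coding genes and for each histone family. Among the families the octamer bars stand only at H2A and H2B (75% each), and the GGTCC bar (HINFP part) is highest at H4 (92.3%).

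The stem-loop that replaces the poly(A) signal was found in nearly every gene. The form searched was a stem of 6 Watson-Crick pairs, starting GG and ending CC, around a loop of 4 bases. It was present within 200 bases after the stop codon at 62 of 64 genes (96.9%). Over all 19819 protein-coding genes with such a window it was present at 171 (0.863%). These 171 include the 62 histone genes, and the other 109 include the variant histone gene H2AX. The median distance from the stop codon was 36 bases, with a range of 23 to 68. The most common form was shared by 38 genes of H1, H2A, H2B and H3. All 13 H4 genes had stems that begin GGCCC, in 3 forms. H2AC11 and H2AC15 had stems in which 1 pair was T opposite G, a U-G wobble pair in the RNA. They are shown with 2 others on the strand of the gene, with the stem in capitals and the loop in lower case.
H3C2, chr6:26031825-26031840, minus strand, most common form: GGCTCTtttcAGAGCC
H4C16, chr12:14923658-14923673, minus strand, most common form in H4: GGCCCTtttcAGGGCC
H2AC11, chr6:27101294-27101309, plus strand, 1 U-G pair: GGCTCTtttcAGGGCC
H2AC15, chr6:27805663-27805678, minus strand, 1 U-G pair: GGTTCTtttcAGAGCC

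Against the peak lists, the histone genes fell into a marked and an unmarked group with little in between. A gene was counted as having a peak where a deposited peak shared at least 1 base with any of its start sites widened by 500 bp. H3K4me3 was present at 36 of 64 genes (56.2%), where 66.9% of all protein-coding genes had such a peak. H3K27Ac was present at 35 (54.7%), against 62.9%. FAIRE was present at 30 (46.9%), against 37%. Thus the share of histone genes was under that of all genes for both marks and above it for FAIRE. H3K4me1 was present at 1 gene (1.56%), against 17.8%, and at 3 of 66 (4.55%) when 2 histone genes under older symbols, added after their values were seen, were included. The 30 genes with FAIRE were also the 30 with H3K4me3, H3K27Ac and FAIRE together, a combination found at 34.6% of all genes. No peak of any list was found at 27 genes (42.2%), against 30%. The other 7 genes had H3K4me3 and H3K27Ac without FAIRE (H3C10, H4C11 and H4C12), the same with H3K4me1 (H1-2), H3K4me3 alone (H2BC18 and H3C13) or H3K27Ac alone (H4C5). With the peak centre required inside the promoter, a choice added after the data were seen, H3K4me3 was counted at 20 genes (31.2%) and H3K27Ac at 16 (25%), against 57.4% and 50.4% of all protein-coding genes under the same rule.

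**Figure D2:**
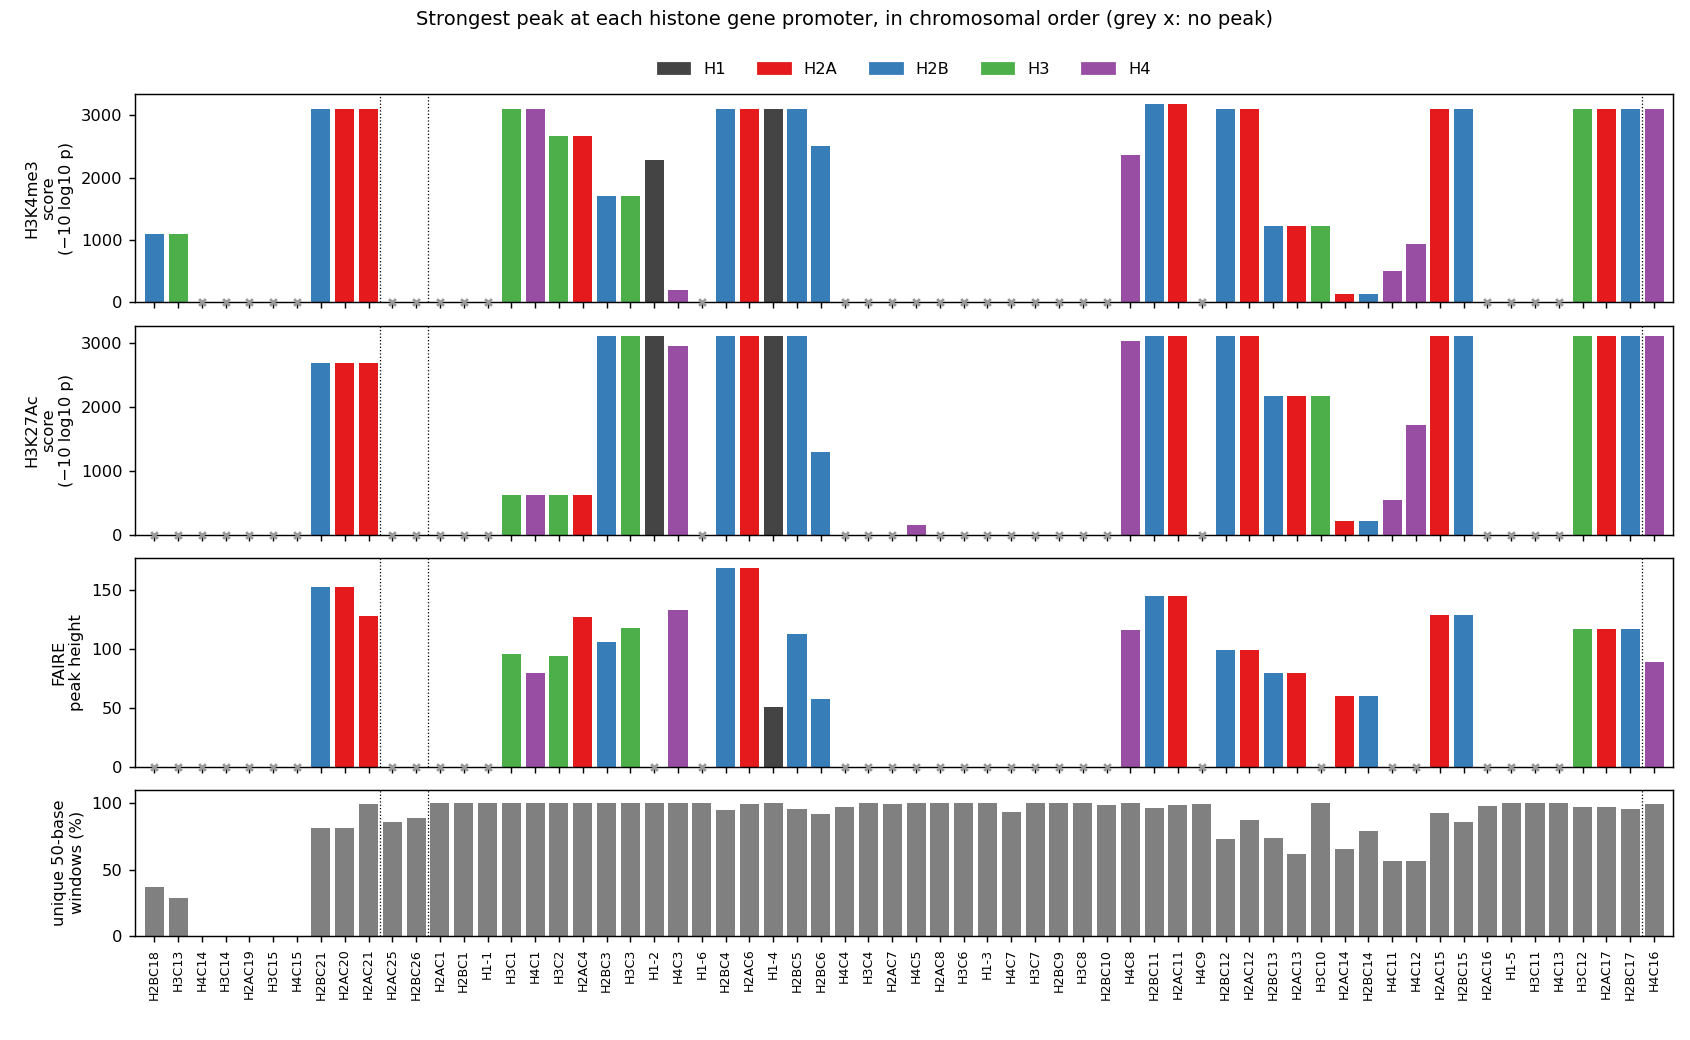
Score of the strongest H3K4me3 and H3K27Ac peak (minus 10 times log10 p), height of the highest FAIRE peak and share of unique 50-base windows (%) at the promoter of each of 64 histone genes in chromosomal order, coloured by family, with dotted lines between clusters and crosses where no peak was found. Marked genes stand in blocks, and the 12 genes from H4C4 to H2BC10 have crosses in the 3 peak panels but for the H3K27Ac peak of H4C5 (154).

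The deposited score of a histone-mark peak is minus 10 times the log10 of its p against input and is not an enrichment. Many peaks share the value 3100: 10237 of 18019 H3K4me3 peaks and 3928 of 37495 H3K27Ac peaks had 3100 or more, so the score does not order the strongest peaks. FAIRE heights are the deposited peak heights, which ran from 14 to 234.8 with a median of 61.1 over 46552 peaks. H3K4me1 had 26771 peaks with a median score of 114. The lists used here give no read counts, so the depth behind a peak is not known from them.

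The linker histones were the family with the fewest marked genes. H1 proteins bind the DNA between nucleosomes, and 2 of 6 H1 genes (33.3%), H1-2 and H1-4, had H3K4me3 and H3K27Ac. Over all protein-coding genes, 66.9% had H3K4me3 and 62.9% had H3K27Ac. H1-4 lay under an H3K4me3 peak of 5350 bp with a score of 3100 at chr6:26155404-26160753. Its H3K27Ac peak was 6054 bp wide with a score of 3108, and its FAIRE peak, 1559 bp wide, had a height of 50.7, the lowest among the 30 genes with FAIRE. H1-4 shared both mark peaks with H2BC5, a gene chosen here after its values were seen, whose own FAIRE peak had a height of 113. H1-2 had an H3K4me3 peak of 3535 bp (score 2279) and an H3K27Ac peak of 5687 bp (score 3100). It was the only one of the 64 genes with H3K4me1 at its promoter, in a peak of 3836 bp and score 54.4 that ended 147 bp from its start, and its nearest FAIRE peak was 557 bp away. This H3K4me1 peak was under the stricter threshold of p at or under 1e-10, so the count with that threshold was 0.

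H1-1, H1-3, H1-5 and H1-6 had no peak of any list at the promoter. H1-6 is the linker histone of the testis, and its nearest H3K4me3 peak was 2838 bp away. H1-1 lay 2025 bp from the nearest H3K4me3 peak and 1772 bp from the nearest H3K27Ac peak, those of H3C1 next to it. H1-3 and H1-5 were far from any: their nearest H3K4me3 peaks were 48837 bp and 22435 bp away. All 50-base windows in these 4 promoters were unique in the genome, and all 6 H1 promoters held both a TATA box and a CCAAT match.

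H2A proteins pair with H2B in the nucleosome core, and many of their genes stand in pairs. Of 16 H2A genes, 10 (62.5%) had H3K4me3, H3K27Ac and FAIRE and 6 (37.5%) had no peak. Over all protein-coding genes, 66.9% had H3K4me3, 62.9% H3K27Ac, 37% FAIRE, 34.6% these 3 together and 30% no peak. Of the 10 marked H2A genes, 8 lay head to head with an H2B gene. H2AC6 had the highest FAIRE peak of the family, 169, in an H3K4me3 peak of 5568 bp (score 3100) and an H3K27Ac peak of 7990 bp (score 3100). H2AC11 had the highest H3K4me3 score, 3184, in a peak of 3973 bp at chr6:27098436-27102408. At the low end was H2AC14, with an H3K4me3 peak of 1792 bp and score 131, an H3K27Ac peak of 2837 bp and score 209, and a FAIRE height of 60.2. The H2A family therefore spanned the whole range of H3K4me3 scores seen at histone genes, 131 to 3184.

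H2AC21, the last gene of the chromosome 1 cluster, lay under the same H3K4me3 peak of 5692 bp as H2BC21 and H2AC20 and had a FAIRE peak with a height of 128 that also lay at a start site of the neighbouring gene BOLA1, chosen here after its values were seen. H2AC12 had a FAIRE height of 98.8 and H2AC13 one of 79.9. The H2A genes without a peak were H2AC1, H2AC7, H2AC8, H2AC16, H2AC19 and H2AC25. H2AC1 is the testis H2A gene, and the nearest H3K4me3 peak was 235217 bp from its start. H2AC7 and H2AC8 were 14357 bp and 31985 bp from the nearest H3K4me3 peak, and H2AC16 was 24706 bp away. H2AC19 was different, with H3K4me3 509 bp, H3K27Ac 535 bp and H3K4me1 504 bp from its start, just outside the promoter as counted here. None of its 50-base windows was unique in the genome.

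Among the families, H2B had the most marked promoters, 2 more than H2A for H3K4me3. H3K4me3 was present at 12 of 16 H2B genes (75%), against 66.9% of all protein-coding genes. H3K27Ac was present at 11 (68.8%), against 62.9%, and FAIRE at 11 (68.8%), against 37%. H2BC4, the partner of H2AC6, shared its FAIRE height of 169, and H2BC11, the partner of H2AC11, shared its H3K4me3 score of 3184. H2BC12 stood in the middle of the family with an H3K4me3 peak of 4439 bp and score 3100 and an H3K27Ac peak of the same width, 4439 bp, and the same score. H2BC14 was the lowest, with the score of 131 that it shared with H2AC14. The values of H2B genes thus repeated those of H2A genes wherever the genes were paired.

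H2BC18, the first gene of the chromosome 1 cluster, had H3K4me3 (score 1092, 3531 bp) with no H3K27Ac or FAIRE at its promoter. Its nearest H3K27Ac peak was 30928 bp away. H2BC6, chosen here after its values were seen, had mark peaks at each of its 2 annotated starts. Its upstream start had H3K4me3 of score 2507, H3K27Ac of score 1283 and FAIRE of height 57.3, while the start of its main transcript had H3K4me3 of score 300, H3K27Ac of score 71.1 with the nearest FAIRE peak 7328 bp away. H2BC1, H2BC9, H2BC10 and H2BC26 had no peak of any list. H2BC1 is the testis H2B gene and lies head to head with H2AC1. H2BC9 and H2BC10 were 32210 bp and 10893 bp from the nearest H3K4me3 peak.

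H3 is the histone that carries the marks measured here. Of 13 H3 genes, 6 had H3K4me3 (46.2%), 5 had H3K27Ac (38.5%) and 4 had FAIRE (30.8%). The shares over all protein-coding genes were 66.9%, 62.9% and 37%. H3C12 lay under the widest H3K4me3 peak of the 64 genes, 6484 bp (score 3100) at chr6:27857801-27864284, which it shared with H2AC17 and H2BC17. Its own start had a FAIRE peak of height 59.6, and a higher one of 117 lay at the start of its alternative transcript, between H2AC17 and H2BC17. H3C2 had an H3K4me3 peak of 4113 bp (score 2668) and a FAIRE height of 94.2. H3C3 had the highest FAIRE peak of the family, 118. H3C10 had H3K4me3 (score 1217) and H3K27Ac (score 2158) in peaks that it shared with H2BC13 and H2AC13, and its nearest FAIRE peak was 1689 bp away. The FAIRE peak inside those mark peaks lay at the neighbouring pair.

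H3C13, H3C14 and H3C15 lie on chromosome 1 and encode the other replication-coupled H3 protein. H3C13 was the lowest H3 gene with H3K4me3, in the peak of score 1092 that it shared with H2BC18, and had no H3K27Ac within 29605 bp. H3C14 and H3C15 had no peak at the promoter, with H3K4me3 2044 bp and 2051 bp away. On chromosome 6, H3C4, H3C6, H3C7, H3C8 and H3C11 had no peak of any list. Their distances to the nearest H3K4me3 peak ran from 12350 bp at H3C4 to 40199 bp at H3C6. All 5 promoters were fully unique in 50-base windows.

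Most H4 genes encode the same protein, yet their peaks differed widely. Of 13 H4 genes, 6 had H3K4me3 (46.2%), 7 had H3K27Ac (53.8%) and 4 had FAIRE (30.8%), against 66.9%, 62.9% and 37% of all protein-coding genes. H4C16, alone on chromosome 12, had an H3K4me3 peak of 3882 bp (score 3100), an H3K27Ac peak of 3944 bp (score 3100) and a FAIRE height of 89.2. H4C8, the middle of the family, had H3K4me3 of score 2353 in 3441 bp, H3K27Ac of score 3019 and a FAIRE height of 116. H4C3 combined the lowest H3K4me3 score of the family, 196 in 2592 bp, with an H3K27Ac score of 2939 and the highest FAIRE height of the family, 133. At H4C3 the lists therefore did not rank the gene alike.

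H4C11 and H4C12 had H3K4me3 (scores 496 and 936) and H3K27Ac (scores 537 and 1704) without FAIRE, and their nearest FAIRE peaks were 8707 bp and 6530 bp away. In both promoters 56.7% of 50-base windows were unique. H4C5 had H3K27Ac without H3K4me3, in a peak of 1925 bp and score 154 that began 475 bp from its start. With the start site alone in place of the widened promoter this peak was no longer counted. H4C4, H4C7, H4C9, H4C13, H4C14 and H4C15 had no peak of any list. H4C9 stood between marked genes, 4653 bp from the nearest H3K4me3 peak, and 99.3% of its windows were unique.

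Where present, peaks at histone genes were wider than those over all genes. The widest H3K4me3 peak at a promoter had a median of 4113 bp over the 36 genes, with a range of 1792 to 6484 bp, against 2975 bp over all genes with such a peak. For H3K27Ac the median was 6125 bp over 35 genes, with a range of 1925 to 16079 bp, against 3252 bp. Because neighbours share peaks, the medians were also taken over peaks, each counted a single time. They were then 3882 bp for 21 H3K4me3 peaks and 4439 bp for 21 H3K27Ac peaks. This count also took in narrower second peaks of a gene, such as H3K27Ac peaks of 1611 bp at H2BC6 and 1597 bp at H4C11. The part of this in the lower medians was not tested. Both medians over peaks lay above those over all genes and close to those at ribosomal protein genes, 3790 bp and 4376 bp. They were under those at the 5 genes listed for histone gene transcription, 4269 bp and 4923 bp. The medians of all genes and of these lists are of the widest peak of each gene, so the measures are unlike. Of the 21 H3K4me3 peaks, 13 covered 2 or more histone genes, and 11 of 21 H3K27Ac peaks did. The widest, an H3K27Ac peak of 16079 bp at chr6:26019787-26035865 with a score of 618, covered the promoters of H3C1, H4C1, H3C2 and H2AC4, a block chosen here after its values were seen.

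The median H3K4me3 score was 3100 both at histone genes and at all genes with a peak, and 19 of 36 histone genes had 3100 or more, where 81.9% of all genes with a peak did. The median H3K27Ac score was 3019, against 1358, and 17 of 35 genes had 3100 or more, against 15.7%. Over the 21 peaks of each mark, each counted a single time, the median scores were 2507 for H3K4me3 and 2939 for H3K27Ac. These peaks include lower-scoring second peaks of a gene. The median FAIRE height was 117, against 69, and 26 of 30 genes were above the median of all genes. Counted over 28 FAIRE peaks, the median height was 97.3, but these include peaks that are not the highest of any gene, such as 59.6 at H3C12 and 60 at H2BC11. Histone genes with peaks thus had high H3K27Ac scores and FAIRE heights beside all genes. Of the 21 H3K4me3 peaks, 9 had 3100 or more, and the difference from all genes was not tested.

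**Figure D3:**
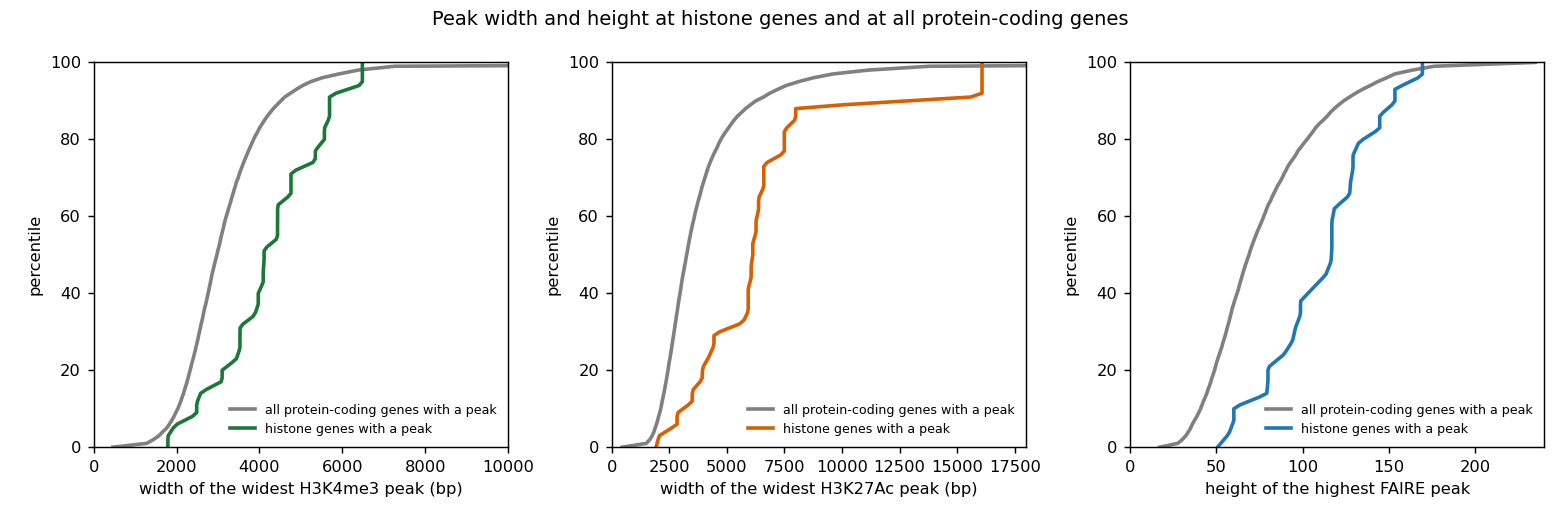
Percentile curves of the widest H3K4me3 and H3K27Ac peak (bp) and the highest FAIRE peak at promoters with a peak, for histone genes (coloured) and all protein-coding genes (grey). The histone curves lie to the right over most percentiles, with medians of 4113 against 2975 bp, 6125 against 3252 bp and a height of 117 against 69.

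The marks were nested at these promoters. Of 21 H3K4me3 peaks at histone genes, 20 shared bases with an H3K27Ac peak and 16 (76.2%) lay wholly inside one, against 31.7% of the 12700 H3K4me3 peaks at all protein-coding genes. Of 28 FAIRE peaks, 27 lay wholly inside an H3K4me3 peak (69.9% at all genes), and all 28 inside an H3K27Ac peak (88.1%). The centre of the highest FAIRE peak lay at a median of -116 bp from the start of the main transcript, upstream of it at 27 of 30 genes and within 250 bp of it at 26. The centre of the highest FAIRE peak thus lay mostly just before the start, inside wider mark peaks. The FAIRE peaks themselves were not confined to the bases before the start. With the start site alone in place of the widened promoter, FAIRE was still counted at 30 genes.

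Among the histone genes there were 11 head-to-head pairs, with diverging starts at most 1000 bp apart, of which 10 joined an H2A and an H2B gene, and they held 22 of the 64 genes. Distances ran from 194 to 979 bp with a median of 244 bp. H3K4me3, H3K27Ac and FAIRE were all present at 8 of 11 pairs and H3K4me1 at none. The highest FAIRE peak was centred between the starts in 8 of 8. Among all 978 such pairs of protein-coding genes, 588 (60.1%) had FAIRE. The shares with each histone mark over all such pairs were not taken, so the mark counts at histone pairs have no such scale.

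The closest pair, H2AC15 and H2BC15 at 194 bp, had a FAIRE peak of height 129 under an H3K4me3 peak of 4092 bp and an H3K27Ac peak of 6377 bp, both with a score of 3100. H2BC21 and H2AC20, at 236 bp, had a FAIRE height of 153 with an H3K27Ac score of 2685. H2AC17 and H2BC17, at 240 bp, had a FAIRE height of 117. In each of these the same FAIRE peak covered both starts. H2BC4 and H2AC6 had the highest FAIRE value of all pairs, 169, followed by H2BC21 with H2AC20 and by H2BC11 with H2AC11 at 145. H2AC1 with H2BC1 (215 bp), H2AC25 with H2BC26 (230 bp) and H3C7 with H2BC9 (979 bp) had no peak of any list. The H2AC1/H2BC1 stretch printed above holds an octamer, 3 CCAAT and 2 TATA matches, as many of each as the H2BC21/H2AC20 stretch. It has no GGTCC match, where the H2BC21/H2AC20 stretch has 3. The unmarked H2AC25/H2BC26 and the marked H2AC15/H2BC15 stretches each hold 3 CCAAT matches and no other motif. Among the printed stretches, only H2AC17/H2BC17 and H2BC11/H2AC11, both marked, hold an E2F-like match.

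**Figure D4:**
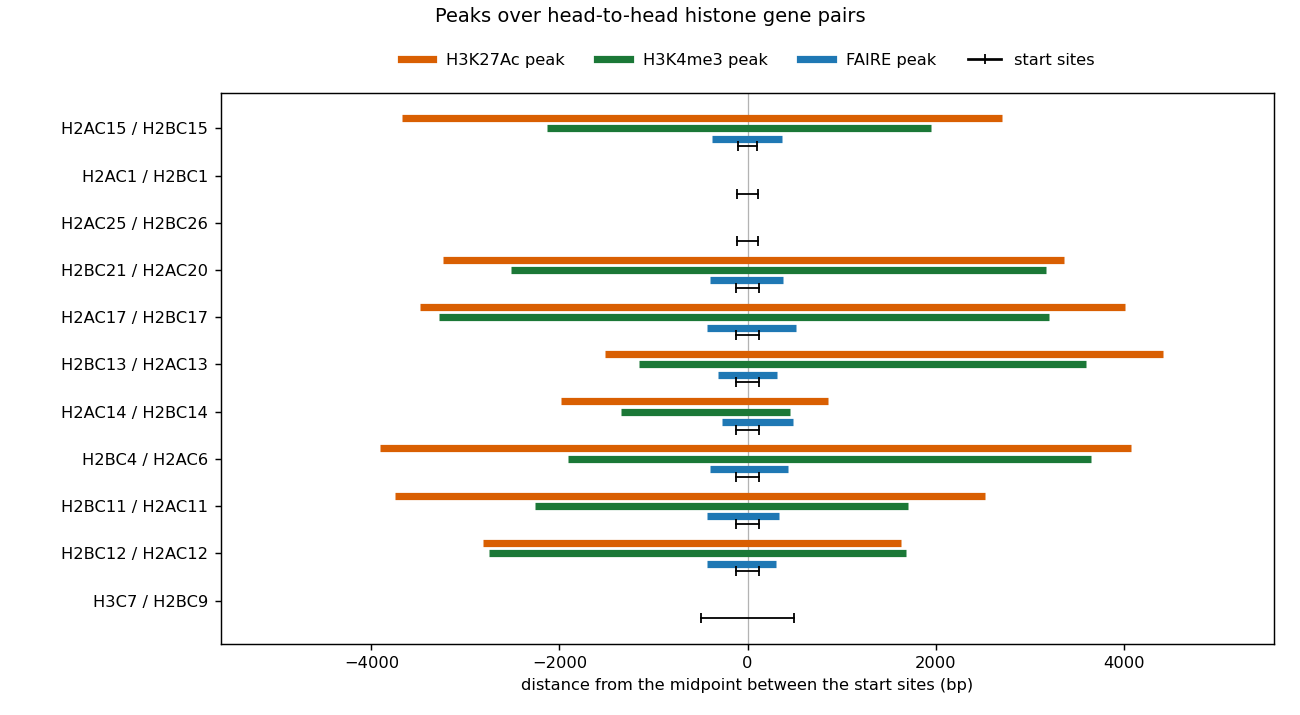
Extent of the strongest H3K27Ac, H3K4me3 and FAIRE peak at 11 head-to-head pairs, in bp from the midpoint between the 2 start sites (black ticks), sorted by the distance between starts. FAIRE peaks cover the stretch between the starts in 8 pairs, inside wider H3K27Ac peaks, and 3 pairs have no peak. At H2AC14 and H2BC14 the FAIRE peak runs past the end of the H3K4me3 peak.

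Along chromosome 6 the cluster from H2AC1 to H2BC17 spanned 2138 kb and held 22 other protein-coding genes. H3K4me3 peaks covered 8.33% of it, against 1.57% of the chromosome, H3K27Ac peaks 9.89%, against 4.25%, and FAIRE peaks 3.72%, against 1.64%. H3K4me1 was the exception, at 4.4% against 3.64%. Only part of this belongs to the 64 genes: of 68 H3K4me3 peaks in the cluster, 18 lay at promoters of the 64 genes, 15 at other protein-coding genes, among them HIST1H4B, an H4 gene under an older symbol, 11 at other annotated starts and 24 at none. Of 80 FAIRE peaks, 24 lay at promoters of the 64 genes and 34 at no annotated start. Of 29 H3K4me1 peaks, 1 lay at a promoter of the 64 genes and 1 at HIST1H4B, which was chosen here after its values were seen.

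The histone genes stand in 4 groups within the cluster once gaps of 100 kb or more divide it. The group from H1-1 to H4C8 held 28 genes in 269 kb, with 14.6% covered by H3K4me3, 21.7% by H3K27Ac and 4.13% by H3K4me1. The group from H2BC11 to H2AC12 held 5 genes in 21.7 kb, with 33.7%, 53.2% and 28.1% covered, the last by 1 H3K4me1 peak. The group from H2BC13 to H2BC17 held 16 genes in 86.4 kb, with 21.3% and 30.3% covered and no H3K4me1 peak. The group of the testis genes H2AC1 and H2BC1 had no peak. Among bins of 50 kb along the cluster, 9 of 11 with histone genes and 22 of 32 without had an H3K4me3 peak.

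**Figure D5:**
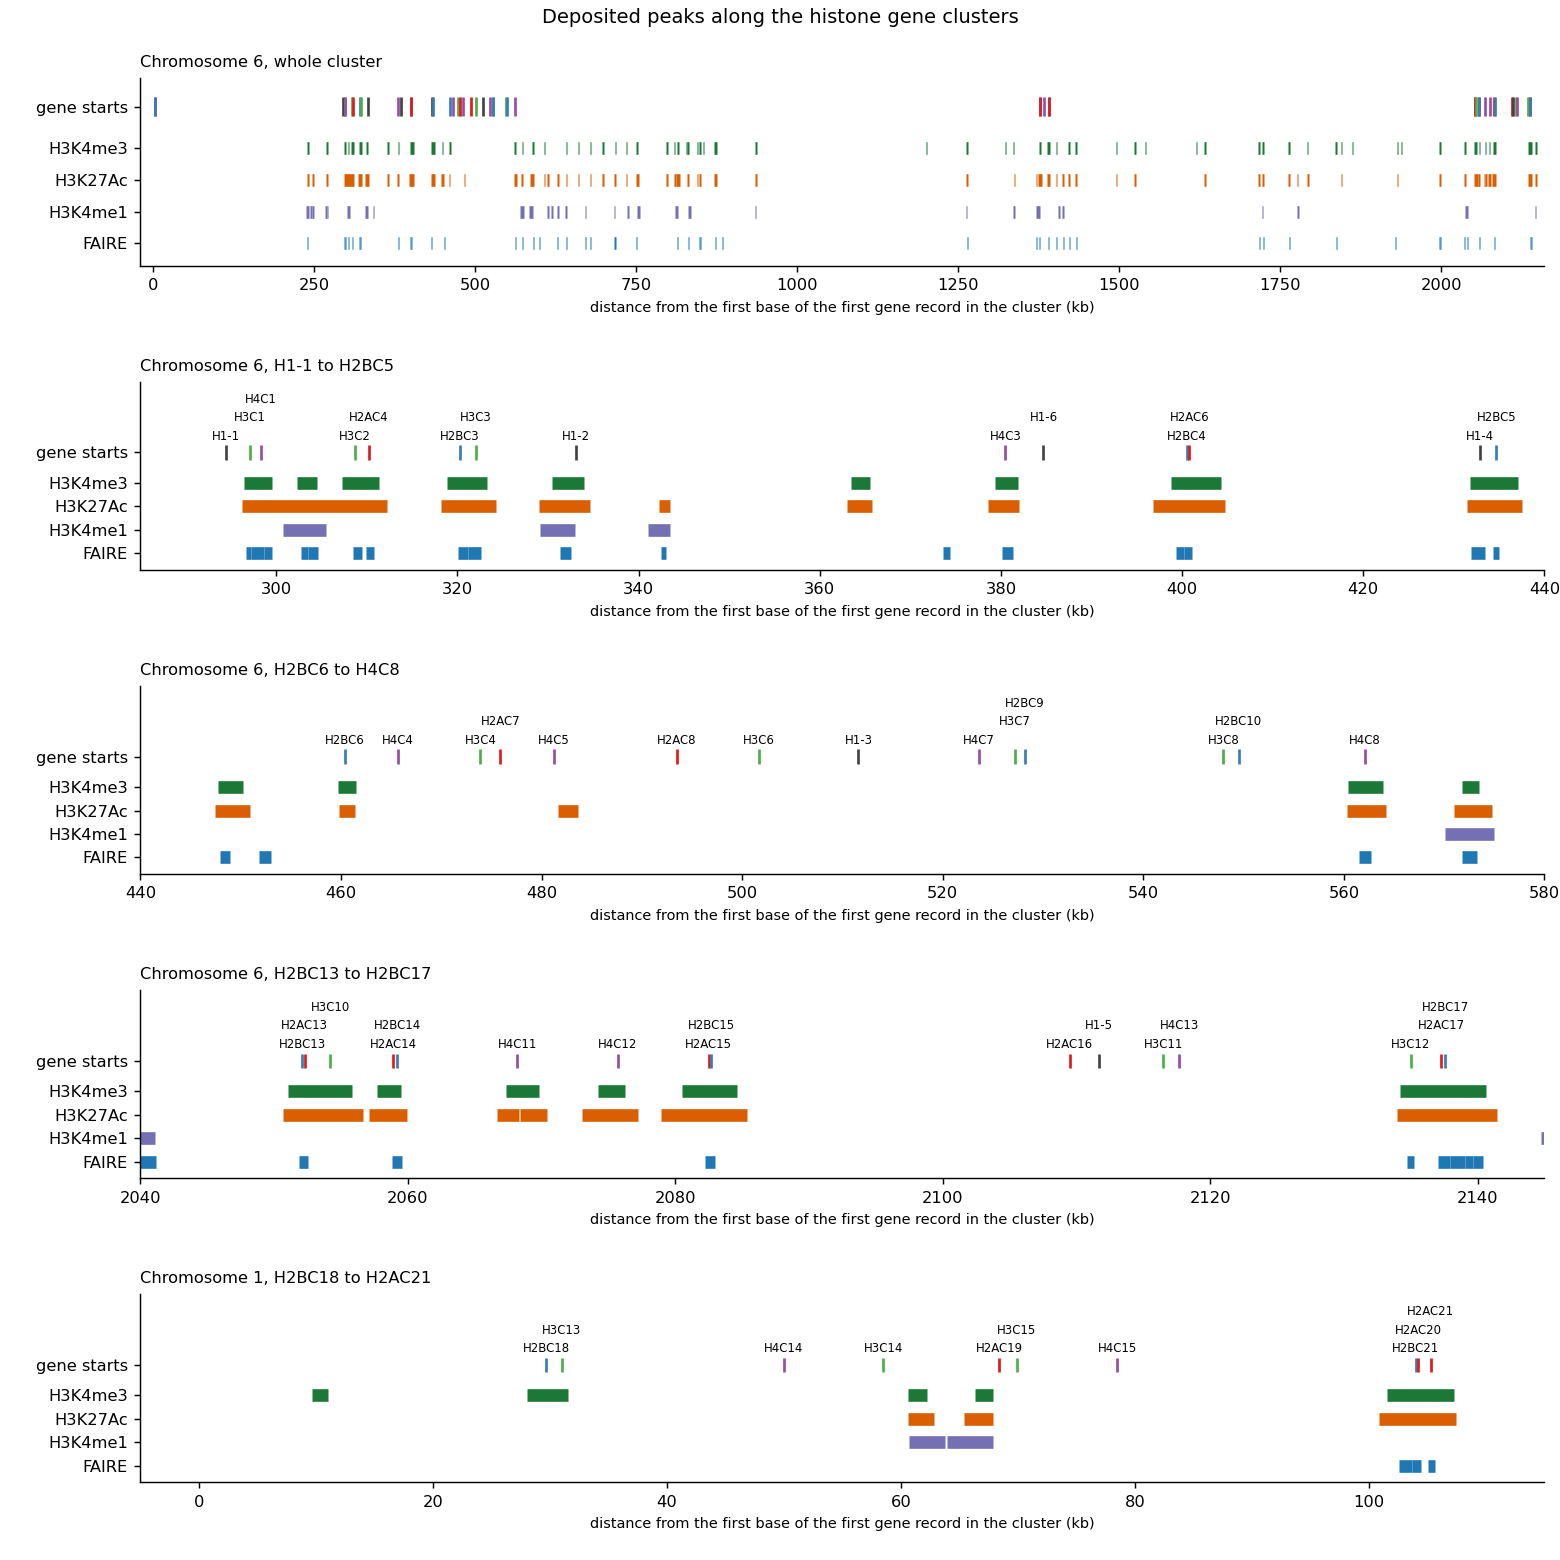
Deposited peaks (bars) and histone gene start sites (ticks, coloured by family) along the chromosome 6 cluster, 3 parts of it and the chromosome 1 cluster, in kb from the first base of the first gene record. The 12 genes from H4C4 to H2BC10 fill a stretch with 1 H3K27Ac peak and no H3K4me3, H3K4me1 or FAIRE peak.

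Most unmarked genes stood in runs. The longest run without H3K4me3, from H4C4 to H2BC10, held 12 genes of all 5 families in 84.7 kb at chr6:26188938-26273640. Within it the lists had 0 H3K4me3, 0 H3K4me1 and 0 FAIRE peaks and the 1 H3K27Ac peak near H4C5. The interval between the flanking H3K4me3 peaks was 98.9 kb, that between the flanking FAIRE peaks 108 kb and that between the flanking H3K4me1 peaks 227 kb. At least 93.2% of the windows in each of the 12 promoters were unique. The flanking genes H2BC6 and H4C8 both had H3K4me3, with scores at the main start of 300 and 2353. A run of 4 genes, H2AC16, H1-5, H3C11 and H4C13, spanned 8.22 kb with no peak of any list, in an interval of 49.6 kb between H3K4me3 peaks and 48.6 kb between H3K27Ac peaks. The genes on either side, H2BC15 and H3C12, had all 3.

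Matches to each promoter motif were found among the genes without H3K4me3, most often to CCAAT and least often to the E2F-like site. Of the 28 genes without H3K4me3, 23 had a CCAAT match and 18 a TATA box, while of the 36 genes with H3K4me3, 32 and 30 had them. The octamer was matched at 7 of 28 and 17 of 36, GGTCC at 9 of 28 and 13 of 36, and the E2F-like site at 3 of 28 and 11 of 36. Median GC content was 47% without and 42.2% with H3K4me3, and the CpG ratio 0.796 and 0.667. These counts rest on the families, on shared peaks and on motif sites that head-to-head genes share, and whether the groups differ was not tested.

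On chromosome 1 the cluster from H2BC18 to H2AC21 spanned 105 kb. H3K4me3 was present at 5 of its 10 genes (50%), against 66.9% of all protein-coding genes. H3K27Ac and FAIRE were each present at 3 of 10 (30%), against 62.9% and 37%. The middle of the cluster, from H4C14 to H4C15, held 5 genes in 28.5 kb without a peak at any promoter. In that stretch lay 2 H3K4me3, 2 H3K27Ac and 2 H3K4me1 peaks. All were at annotated start sites other than those of the 64 genes. In the promoters of H4C14, H3C14, H2AC19, H3C15 and H4C15 no 50-base window was unique in GRCh37, and the authors removed reads of low mapping quality before calling peaks. H3C13 and H2BC18, with 28.4% and 37% of windows unique, still had H3K4me3. The part of repeated sequence in these results was not tested.

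Promoters with under 90% unique windows numbered 20 of 64. Besides the 5 at 0% and H2BC18 and H3C13, they were H4C11, H4C12, H2AC13 (61.7%), H2AC14 (65.7%), H2BC12 (73.2%), H2BC13 (73.9%), H2BC14 (79.1%), H2AC20 (81.1%), H2BC21 (81.3%), H2AC25 (85.9%), H2BC15 (86%), H2AC12 (87.3%) and H2BC26 (88.9%). Of these 20 genes, 13 (65%) had H3K4me3, 11 (55%) had H3K27Ac and 9 (45%) had FAIRE. Of the other 44 genes, 23 (52.3%) had H3K4me3, 24 (54.5%) H3K27Ac, 21 (47.7%) FAIRE and 20 (45.5%) no peak of any list. Among the 20, 7 (35%) had no peak of any list, so unmarked promoters were found in unique and in repeated sequence. Over all protein-coding genes, 66.9% had H3K4me3, 62.9% H3K27Ac, 37% FAIRE and 30% no peak. The nearest peak of any list was 12936 bp from H2BC26 and 13166 bp from H2AC25.

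Other genes of the same biology give a scale for these counts. All 5 genes listed for histone gene transcription had H3K4me3, H3K27Ac and FAIRE, and NPAT, the coactivator of histone genes, had scores of 3100 for both marks, H3K4me1 of score 80.1 and a FAIRE height of 116. All 9 genes for histone pre-mRNA processing and decay had both marks and 6 had FAIRE. SLBP, which binds the stem-loop, had an H3K4me3 score of 3100, an H3K27Ac score of 2792 and a FAIRE height of 57. The 5 regulators of entry into S phase and the 5 histone chaperones all had both marks, with FAIRE at 2 and 4 of them. The listed genes that act on histone genes and histones thus all had both marks, though not all had FAIRE. Of the histone genes themselves, 28 lacked H3K4me3 and 56.2% had it. Over all protein-coding genes, 66.9% had H3K4me3, 62.9% H3K27Ac and 37% FAIRE.

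Of 12 replication-independent and variant histone genes, 10 had both marks and 6 had FAIRE, with a median FAIRE height of 125. MACROH2A2 and H3-5 had no peak of any list. Of 77 ribosomal protein genes, another family made in bulk, 76 had both marks, 73 had FAIRE and 19 had H3K4me1. Their median H3K27Ac score was 1558 and their median FAIRE height 79.4, under the 3019 and 117 of the marked histone genes. The histone medians count a shared peak for each of its genes. With each peak counted a single time, lower second peaks included, they were 2939 and 97.3. The median H3K27Ac score of the 5 transcription genes was 3100. The 3 testis histone genes, H1-6, H2AC1 and H2BC1, had no peak of any list.

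The label of the cell line was checked at marker promoters. The promoters of VIM, AXL and CD44, genes active in mesenchymal-like cells, had peaks in all 4 lists, with FAIRE heights of 84, 148 and 128. ESR1 and PGR, hormone receptor genes whose proteins a triple-negative line lacks, had H3K4me3 (scores 1258 and 400) without H3K27Ac or FAIRE. CDH1, which encodes E-cadherin, had no H3K4me3, with H3K27Ac of score 538 and FAIRE of height 31.7.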

How the data were processed

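Reads of 50 bases from the 2 samples of an assay were aligned to GRCh37 by the authors with BWA, filtered for duplicates and for mapping quality, and then combined. Peaks of the marks were called with MACS, run with its defaults against input DNA, and those of FAIRE with FindPeaks, also against input. For a mark, the deposited −log10 score equals 10 times −log10 of p. For FAIRE, the authors gave the signal height of each peak. Depth per sample was not used here.

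From these lists, peaks sharing at least 1 base with a start site of a GENCODE v44lift37 transcript widened by 500 bp were counted in Python 3.11.15 with pandas 2.3.3 and NumPy 2.4.6. On simulated data, this step was checked against the overlaps that bedtools 2.31.1 gives. Sequence was read from GRCh37 with pysam 0.24.0, motifs were searched on both strands in the 250 bases before the canonical start, and a 50-base window was called unique if it occurred in the genome a single time on either strand. Figures were drawn with matplotlib 3.10.9. Clusters were joined over gaps under 1 Mb.

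The plan assumed fold enrichment, summits and false discovery rates, which the lists used here do not give, so score and width took their place. Genes were named by family: the highest, middle and lowest H3K4me3 score (ties by width), the highest FAIRE peak, genes lacking H3K4me3 or H3K27Ac, genes with H3K4me1, the 5 closest pairs, the first and last gene of each cluster, testis genes, promoters under 90% unique, and, of the other lists, genes without H3K4me3 (1 is not reported here) and NPAT and SLBP. Members and lists were chosen with earlier results of these data known. No test was run. Alternatives changed the promoter width, start sites, thresholds, overlap rule, cluster gaps and the genes included. Of 5 histone symbols of the RefSeq table that the GENCODE rule did not give, H2AC18 and H4C2 are reported under older symbols, and the others were not analysed here.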

Additional observations from a re-analysis of the deposited data

How the results depend on the processing

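Of 68 alternative values, 55 stayed close to those reported, within 1.5 times for a count and 10% for a median or a covered share, and 13 moved. The share of genes with H3K4me1, 1.56% as reported, was 0% with the start site alone, 4.69% within 1000 bp, 6.25% within 2000 bp, 0% at p at or under 1e-10, 0% with the peak centre inside the promoter and, in a choice added after the data were seen, 4.55% with the 2 genes under older symbols. The centre rule, added for the marks after the data were seen because the lists give no summit, also gave 31.2% for H3K4me3 and 25% for H3K27Ac. All protein-coding genes had 57.4% and 50.4% under this rule, and 5.01% for H3K4me1. Counting each peak a single time, with narrower or lower second peaks of a gene included, moved the median H3K27Ac width to 4439 bp and the median FAIRE height to 97.3. These changes were made together, and the part of each was not tested. With clusters divided at gaps of 100 kb, the covered share rose to 14.9% from 8.36% for H3K4me3, to 20.5% from 9.71% for H3K27Ac and to 6.02% from 3.59% for FAIRE, because stretches without histone genes were left out.

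The start of the canonical transcript alone, also added after the data were seen, gave FAIRE at 29 genes (45.3%) in place of 30. The share with no peak of any list ran from 39.1% to 45.5% over its alternatives. Not run were a threshold on the false discovery rate, the summit rule for the marks and medians of fold enrichment, for which the lists used here have no column. No paired analysis was possible because the lists used here are not divided by sample. The lists give no depth, so an absent peak means only that none passed the authors' threshold.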

Other observations

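Among the 25 other protein-coding genes between the first and last gene of the clusters, 16 had H3K4me3, 16 had H3K27Ac, 6 had H3K4me1 and 12 had FAIRE, where the shares over all protein-coding genes were 66.9%, 62.9%, 17.8% and 37%. The 25 include HIST2H2AA3 and HIST1H4B, described below. The genes without H3K4me3 were FCGR1A, SLC17A1, SLC17A2, SLC17A3, SLC17A4, BTN1A1, POM121L2 and 2 genes without a symbol, and they had no peak of any list. The SLC17A genes encode anion and phosphate transporters of kidney and liver and lie between the testis genes H2AC1 and H2BC1 and the rest of the chromosome 6 cluster. In bins of 50 kb, the stretch from 0 to 200 kb of the cluster had no H3K4me3, H3K27Ac, H3K4me1 or FAIRE peak.

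HIST2H2AA3 and HIST1H4B carry older histone symbols and so fall outside the rule used for the 64 genes. They were chosen after their values were seen. HIST2H2AA3, an H2A gene in the middle of the chromosome 1 cluster, had H3K4me3 (score 2141), H3K27Ac (score 1441) and H3K4me1 (score 148) without FAIRE. HIST1H4B, an H4 gene, had H3K4me3 (score 924), H3K27Ac in the peak of 16079 bp, H3K4me1 (score 135) and FAIRE (height 108). Both thus had H3K4me1, which was present at 1 of the 64 genes and so at 3 of 66 (4.55%) with these 2 included.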
